A study of Mus musculus with 4 samples.

Results

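The 10 genes described here encode the T cell receptor complex and its coreceptors: the CD3 chains (Cd3d, Cd3e, Cd3g and Cd247), the constant regions of the αβ receptor (Trac, Trbc1 and Trbc2) and the coreceptors (Cd4, Cd8a and Cd8b1). They were taken by gene name from the 56748 genes of the deposited count table, and 10 of 10 were found. The RNA came from lungs of female BALB/cJ mice, 7 weeks of age at injection, that carried metastases of 4T1-FLuc cells, a luciferase-expressing mouse triple-negative breast cancer (TNBC) line given through the tail vein. The 2 saline mice (PBS control in the labels) received no drug or vector. The 2 ADC/cmLumiOpto mice received an anti-CD276 antibody carrying the microtubule inhibitor mertansine (16 mg/kg in the labels, 8 mg/kg in the study's methods) and the cmLumiOpto vectors (the labels write cmLumi-Olap, and what Olap stands for is not stated), in which light from NLuc and its substrate ViviRen opens the channel CoChR, placed in the inner mitochondrial membrane under a cfos promoter. Treatment lasted 3 weeks per the series description. BALB/cJ mice are immunocompetent, and T cells of the host could be present. The study's methods give 4 samples per group, and 2 per group were analysed here.

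A T cell recognizes peptides through its α and β receptor chains, which carry no signaling motif of their own. The CD3 γ, δ and ε chains and the ζ chain (Cd247) assemble with them and carry the tyrosines that the kinases LCK and ZAP70 use. CD4 binds MHC class II and CD8, a dimer of α and β chains, binds MHC class I, and both bring LCK to the receptor. Cd4 RNA is also made by some macrophages and dendritic cells, Cd8a RNA by a subset of dendritic cells, and Cd247 RNA by NK cells.

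The libraries held between 15263375 and 19675436 counts. A count of 3, the floor used here, corresponded to between 0.146 and 0.202 CPM, the unit of all levels here (counts over TMM-scaled library sizes), for counting error only. In bulk RNA, fewer cells of a type and less RNA per cell cannot be told apart. The labels describe tumor cells and the methods lung tissue. The 7 carcinoma markers summed to between 2949 and 3424 CPM in the 4 samples, and the 7 markers of alveolar, airway and endothelial lung cells were measured in every sample. Lung markers differed widely between samples, with sums of 2797 and 539 CPM in the saline samples and 11628 and 7856 CPM in the ADC/cmLumiOpto samples, and all 7 were higher in both treated samples than in both saline samples, as were 28.1% of all genes tested. The 8 neutrophil markers summed to 1297 and 591 CPM in the saline samples and to 1244 and 8665 CPM after treatment, so that ADC/cmLumiOpto replicate 2 stood apart. The part of these differences in the results on T cell genes was not tested.

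**Figure D1:**
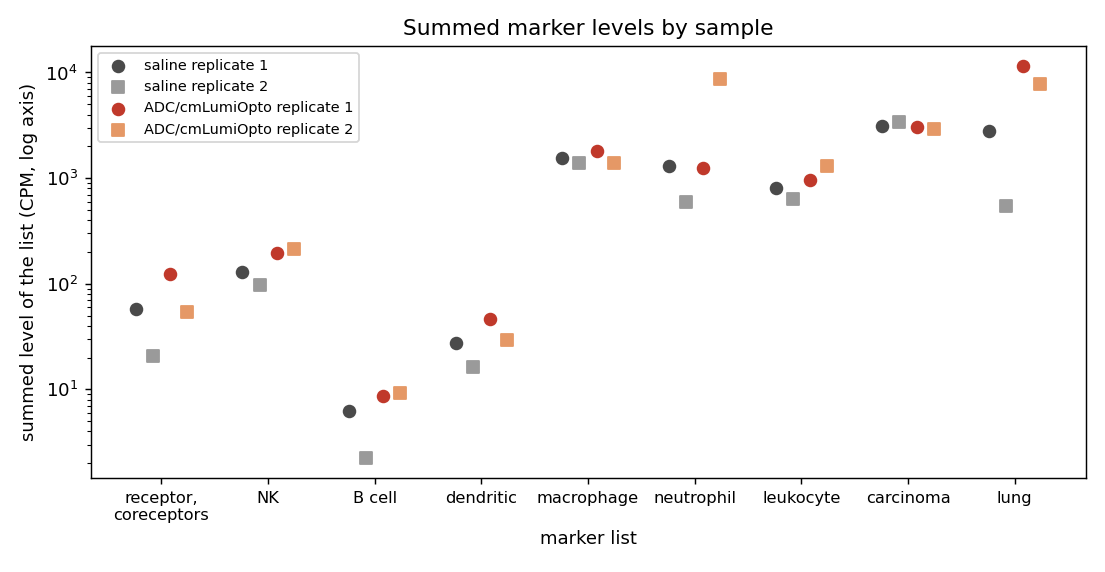
Summed level of each marker list (CPM, log axis) in the 4 samples, one point per sample. The 10 receptor and coreceptor genes summed to 57.6 and 20.7 CPM in the saline samples and to 124 and 54.0 CPM in the ADC/cmLumiOpto samples, while the lung list ran from 539 to 11628 CPM.

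RNA of the receptor complex was low in all samples and on average higher after ADC/cmLumiOpto. The 10 genes had log2 fold changes from 0.05 to 2.03, with a median of 1.36 against 0.03 for all 15320 genes tested. Each of the 10 had a value above 0, as had 52.0% of all genes tested. Both treated samples lay above both saline samples for 4 of the 10 genes (Cd3d, Cd3g, Trbc1 and Trbc2), against 28.1% of all genes. A log2 fold change of at least 1 was found for 6 of the 10 (Cd3d, Cd3g, Trac, Trbc1, Trbc2 and Cd8b1), and for 9.31% of all genes. The quasi-likelihood test of edgeR, adjusted by Benjamini-Hochberg over all tested genes, left 0 of the 10 with an adjusted p under 0.05, and the share over all genes was 0.00%. An unadjusted p under 0.05 was reached by 3 (Cd3d, Cd3g and Trbc2), all of them higher. Over all genes, 11.0% were higher and 12.2% lower at that level (1690 and 1863 genes). With the gene length trend described below removed, Cd3d and Cd3g stayed under 0.05 and Trbc2 did not. The log2 fold change of Cd8b1 then fell to 0.97. Other tools called some genes: DESeq2 gave 1332 genes in all, with Cd3d and Cd3g among them, and the edgeR exact test 1143, with Cd3d.

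The samples within each group differed widely. Saline replicate 1 exceeded saline replicate 2 for all 10 genes, by a median factor of 3.16 in CPM (range 1.76 to 5.98). ADC/cmLumiOpto replicate 1 exceeded replicate 2 for all 10 genes as well, by a median factor of 2.43 (range 1.24 to 3.08). Saline replicate 2 was the lowest sample for all 10 genes, and ADC/cmLumiOpto replicate 1 the highest for 9 of them. ADC/cmLumiOpto replicate 2 lay above saline replicate 1 for 4 genes only, the same 4 whose groups did not overlap.

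**Figure D2:**
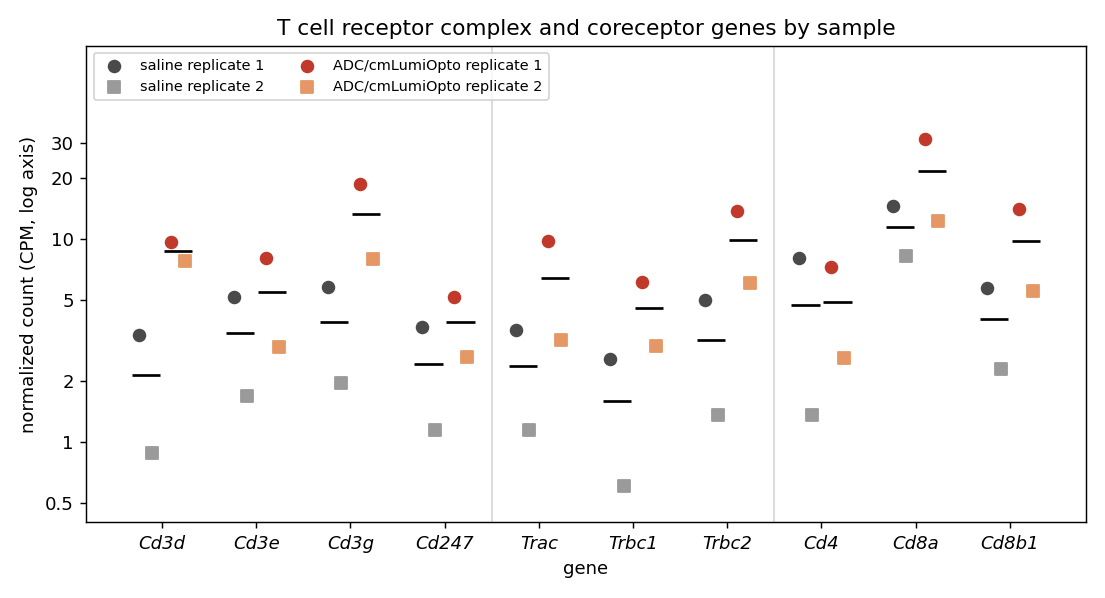
Normalized counts (CPM, log axis) of the 10 genes, with one point per sample and a black line at the mean of each group (n = 2). Saline replicate 2 lies lowest for every gene, and both treated samples lie above both saline samples for Cd3d, Cd3g, Trbc1 and Trbc2.

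The CD3 genes were examined first, since their products assemble with the α and β receptor chains. Cd3d (ENSMUSG00000032094, chr9:44893084-44898637 in the file's coordinates, build mm39 per the submitters' processing notes, + strand) encodes the δ chain. Cd3d had 54 and 13 counts with saline and 171 and 160 with ADC/cmLumiOpto. Both treated samples were about alike, and both exceeded saline replicate 1. The level was 2.13 ± 1.77 CPM (SD, n = 2) with saline and 8.75 ± 1.34 CPM (SD, n = 2) with ADC/cmLumiOpto, which gave a log2 fold change of 2.03 with a standard error of 0.60 (edgeR adjusted p = 0.139). Its neighbor Cd3g (ENSMUSG00000002033, chr9:44880870-44891729, - strand), which encodes the γ chain, had 93 and 29 counts with saline and 329 and 164 with ADC/cmLumiOpto. The groups did not overlap for Cd3g either, with 3.88 ± 2.73 CPM (SD, n = 2) and 13.3 ± 7.53 CPM (SD, n = 2). The log2 fold change came to 1.77, with a standard error of 0.61 (edgeR adjusted p = 0.166).

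The groups did overlap for the other CD3 genes. Cd3e (ENSMUSG00000032093, chr9:44910038-44920925, - strand), the ε chain, had 83 and 25 counts with saline and 142 and 60 with ADC/cmLumiOpto, so that ADC/cmLumiOpto replicate 2 fell between the saline samples. The log2 fold change of Cd3e was 0.67 with a standard error of 0.68 (edgeR adjusted p = 0.583). Cd247 (ENSMUSG00000005763, chr1:165616250-165704846, + strand), the ζ chain, which holds several signaling motifs and also serves receptors of NK cells, showed the same order of samples, with 59 and 17 counts with saline and 91 and 54 with ADC/cmLumiOpto. The log2 fold change came to 0.68, with a standard error of 0.64 (edgeR adjusted p = 0.553). Cd247 overlaps Pou2f1, a transcription factor gene on the opposite strand with 483 and 603 counts with saline and 222 and 372 with ADC/cmLumiOpto, and without strand information reads of both genes in the shared part cannot be told apart.

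Cd3g, Cd3d and Cd3e lie next to each other on chromosome 9. The starts of Cd3d and Cd3g, which are read away from each other, are 1355 bases apart, and Cd3e lies 11401 bases beyond the end of Cd3d. Their promoters are shown because the log2 fold changes of these neighbors ranged from 0.67 to 2.03. RefSeq promoters (GRCm38.p6) were found for 5 of the 10 genes. The 250 bases before the start are given 5′ to 3′ on the strand of each gene. Capitals mark GGAAG, a form of the ETS core GGAA, or its reverse complement CTTCC. The positions are chr9:44981536-44981785 (+) for Cd3d, chr9:44980432-44980681 (-) for Cd3g and chr9:45009612-45009861 (-) for Cd3e.
Cd3d: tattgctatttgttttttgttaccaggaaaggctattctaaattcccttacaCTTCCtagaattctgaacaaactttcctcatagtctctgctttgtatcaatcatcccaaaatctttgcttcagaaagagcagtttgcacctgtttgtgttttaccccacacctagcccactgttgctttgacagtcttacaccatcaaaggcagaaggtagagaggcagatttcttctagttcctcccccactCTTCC
Cd3g: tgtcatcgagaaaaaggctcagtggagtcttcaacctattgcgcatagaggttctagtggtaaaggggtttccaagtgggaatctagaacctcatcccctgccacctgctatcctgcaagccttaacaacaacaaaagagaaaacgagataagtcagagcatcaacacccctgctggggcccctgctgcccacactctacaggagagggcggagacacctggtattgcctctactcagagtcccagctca
Cd3e: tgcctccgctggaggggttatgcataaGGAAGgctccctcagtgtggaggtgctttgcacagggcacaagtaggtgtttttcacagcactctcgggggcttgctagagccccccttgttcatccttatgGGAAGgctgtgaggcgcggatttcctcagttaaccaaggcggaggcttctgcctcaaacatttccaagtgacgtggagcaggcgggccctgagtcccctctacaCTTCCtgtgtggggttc
The form GGAAG or CTTCC was present 2 times for Cd3d, 3 times for Cd3e and 0 times for Cd3g. Among the 5 promoters (also Cd247 and Cd8a) 4 held this form, as did 64.1% of 32851 promoters of the same length. The shorter core GGAA or TTCC was not counted, and the letters printed for Cd3g hold it. The TATA box TATAAA (either strand) was found in 0 of the 5 and in 12.4% of all promoters. The GATA motif AGATAA (either strand), in 9.99% of all promoters, was found in that of Cd3g alone among the 5, and the TCF/LEF motif CTTTGA (either strand), in 13.8%, in that of Cd3d alone. The RUNX motif TGTGGT and the E-box form CAGCTG, each searched on both strands, were in 0 of the 5 and in 14% and 13% of all promoters. Other E-box forms were not searched, and the letters printed for Cd3d and Cd3g hold CACCTG. These matches describe the letters only.

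The constant regions of the αβ receptor followed the CD3 genes. Trac (ENSMUSG00000076928, chr14:54457978-54461663, + strand), the single constant gene of the α chain, had 57 and 17 counts with saline and 172 and 65 with ADC/cmLumiOpto. The 2 middle samples, saline replicate 1 and ADC/cmLumiOpto replicate 2, were close in CPM (3.56 and 3.17), so the groups overlapped. The log2 fold change came to 1.44, with a standard error of 0.71 (edgeR adjusted p = 0.271). Trbc1 (ENSMUSG00000076490, chr6:41515152-41516815, + strand) and Trbc2 (ENSMUSG00000076498, chr6:41523664-41525286, + strand) are alternative constant genes of the β chain, 6849 bases apart. Trbc1 had 41 and 9 counts with saline and 108 and 61 with ADC/cmLumiOpto, which gave a log2 fold change of 1.51 with a standard error of 0.72 (edgeR adjusted p = 0.258). Trbc2 had 80 and 20 counts with saline and 243 and 125 with ADC/cmLumiOpto, which gave a log2 fold change of 1.64 with a standard error of 0.67 (edgeR adjusted p = 0.209). The groups did not overlap for either β gene, although ADC/cmLumiOpto replicate 2 exceeded saline replicate 1 in CPM only by 2.97 to 2.56 for Trbc1 and by 6.10 to 5.0 for Trbc2.

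The balance of the β constant genes varied little, with overlapping intervals. Trbc1 took 33.9% (95% exact binomial interval 25.5 to 43.0) and 31% (15.3 to 50.8) of the reads of both genes in the saline samples, and 30.8% (26 to 35.9) and 32.8% (26.1 to 40.0) after treatment. The split is uncertain, since the genes are near-identical: in the GENCODE transcripts 495 of 518 coding bases were the same (95.6%), with an identical run of 259 bases. The last 60 coding bases (positions 459 to 518 of the coding sequence) are shown because they hold 11 of the differences, which are in capitals.
Trbc1: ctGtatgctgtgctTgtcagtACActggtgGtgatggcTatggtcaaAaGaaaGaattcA
Trbc2: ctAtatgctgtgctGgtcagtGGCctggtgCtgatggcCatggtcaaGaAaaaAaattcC

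Variable segments of the receptor had few reads and 0 of them passed the expression filter. The 35 Trbv segments of the table had 48 and 7 counts with saline and 49 and 40 with ADC/cmLumiOpto, and 13 of them had a count in any sample. The 130 Trav segments had 12 and 2 counts with saline and 30 and 12 with ADC/cmLumiOpto, spread over 20 segments. Of the 3 leading Trbv segments, each had most of its counts in another sample. Trbv30 had 22 and 3 counts in the saline samples, 45.8% (95% exact interval 31.4 to 60.8) and 42.9% (9.90 to 81.6) of their Trbv reads, and 0 counts in both treated samples, for which the exact intervals reach 7.25% and 8.81% and the limit of 3 counts is 6.12% and 7.5%. Trbv31 had 1 count in each saline sample, 16 in ADC/cmLumiOpto replicate 1 and 3 in replicate 2, and Trbv19 had 6 and 0 counts with saline and 5 and 15 with ADC/cmLumiOpto. Of the Trav segments, Trav3-3 had 4, 0, 4 and 1 counts, Trav8d-2 0, 0, 9 and 0, and Trav3-1 2, 0, 1 and 2 (saline replicates 1 and 2, then ADC/cmLumiOpto replicates 1 and 2), and reads of such duplicated segments may be split between copies. Reads are not independent molecules and these intervals cover counting error only. They compare single libraries and not the treatments.

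Constant genes of the γδ receptor were present as well. Trgc1 had 13 and 12 counts with saline and 105 and 14 with ADC/cmLumiOpto, which gave a log2 fold change of 2.01 with a standard error of 0.97 (edgeR adjusted p = 0.263). Without ADC/cmLumiOpto replicate 1, the only high sample, it was -0.24. Trgc2 had 38 and 19 counts with saline and 81 and 39 with ADC/cmLumiOpto, which gave a log2 fold change of 0.82 with a standard error of 0.59 (edgeR adjusted p = 0.436). Trdc, the δ constant gene, had 8 and 7 counts with saline and 18 and 11 with ADC/cmLumiOpto, and did not pass the filter, nor did Trgc3 and Trgc4. The γδ genes took 26.4% (95% exact interval 21.0 to 32.5) and 45.9% (35.0 to 57.0) of all constant-region counts in the saline samples, and 28.9% (25.7 to 32.4) and 21.1% (16.7 to 26) after treatment, so the groups overlapped. Most of these γδ counts came from Trgc1 and Trgc2 and few from Trdc, and the shares are of counts, not of cells. Genes of receptor assembly in the thymus were near 0, with at most 7 counts for Dntt, 2 for Rag1, 1 for Rag2 and 0 for Ptcra in any sample.

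Among the coreceptors, Cd8a and Cd8b1 were on average higher after treatment, whereas Cd4 was at about the same mean in both groups. Cd8a (ENSMUSG00000053977, chr6:71350411-71356157, + strand), the α chain of CD8, had 234 and 123 counts with saline and 550 and 252 with ADC/cmLumiOpto. ADC/cmLumiOpto replicate 2 fell between the saline samples in CPM (12.3 against 14.6 and 8.29). The log2 fold change of Cd8a was 0.92 with a standard error of 0.48 (edgeR adjusted p = 0.298). Cd8b1 (ENSMUSG00000053044, chr6:71299772-71314478, + strand), the β chain, is found on T cells and hardly on dendritic cells. It had 92 and 34 counts with saline and 249 and 114 with ADC/cmLumiOpto, which gave a log2 fold change of 1.28 with a standard error of 0.60 (edgeR adjusted p = 0.250). Cd4 (ENSMUSG00000023274, chr6:124841655-124865184, - strand) had 129 and 20 counts with saline and 128 and 53 with ADC/cmLumiOpto. The saline samples spanned the treated ones, and saline replicate 1 was the highest of the 4. Levels of Cd4 were 4.71 ± 4.75 CPM (SD, n = 2) and 4.92 ± 3.30 CPM (SD, n = 2), which gave a log2 fold change of 0.05 with a standard error of 0.83 (edgeR adjusted p = 0.977).

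Dendritic markers were read beside the coreceptors. Clec9a, of the subset of dendritic cells that can express Cd8a in mice, had 43 and 6 counts with saline and 152 and 143 with ADC/cmLumiOpto, which gave a log2 fold change of 2.32 with a standard error of 0.74 (edgeR adjusted p = 0.148). Xcr1, of the same subset, had 34, 2, 89 and 24 counts and Flt3 18, 3, 68 and 43 (saline replicates 1 and 2, then ADC/cmLumiOpto replicates 1 and 2). Of the 6 dendritic markers tested, 5 had a log2 fold change above 0 and 2 an unadjusted p under 0.05, against 52.0% and 23.2% of all genes, and the list summed to 27.3 and 16.3 CPM in the saline samples and to 46.1 and 29.1 CPM after treatment. Zbtb46 was the tested marker below 0, at -0.22. It made up 14.1 and 13.3 CPM of the sums with saline and 9.86 and 13.7 CPM after treatment. The part of dendritic cells in Cd8a was not tested.

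Ratios within a sample do not depend on library scaling. They were compared by exact permutation tests, two-sided, whose smallest p with 2 samples against 2 is 0.333. Only Cd8a to Cd4 and CD3 to Ptprc, with some alternatives for each, were planned. The ratio of Cd8a to Cd4 per kilobase of gene length was 2.01 and 6.82 in the saline samples and 4.76 and 5.27 after treatment. Saline replicate 1 alone stood low, and the log2 ratios of 1.89 ± 1.25 (SD, n = 2) and 2.33 ± 0.10 (SD, n = 2) overlapped (exact permutation p = 1.0). Cd4 took 28.4% (95% exact interval 24.3 to 32.7) of the counts of the 3 coreceptor genes in saline replicate 1 and 11.3% (7.04 to 16.9) in saline replicate 2, against 13.8% (11.7 to 16.2) and 12.6% (9.62 to 16.2) after treatment. The ratio of Cd8b1 to Cd4 was 1.94 and 4.62 in the saline samples and 5.29 and 5.85 after treatment, without overlap (exact permutation p = 0.333). The ratio of Cd8b1 to Cd8a per kilobase was 0.964 and 0.678 in the saline samples and 1.11 in each treated sample (exact permutation p = 0.333). This ratio was not planned. Cd8b1 (1483 bases) is shorter than Cd8a (3637 bases) and Cd4 (4032 bases). Division by length leaves a trend of fold change with gene length in place. With that trend removed, the log2 fold changes were 0.97 for Cd8b1, 0.88 for Cd8a and 0.06 for Cd4, from 1.28, 0.92 and 0.05.

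**Figure D3:**
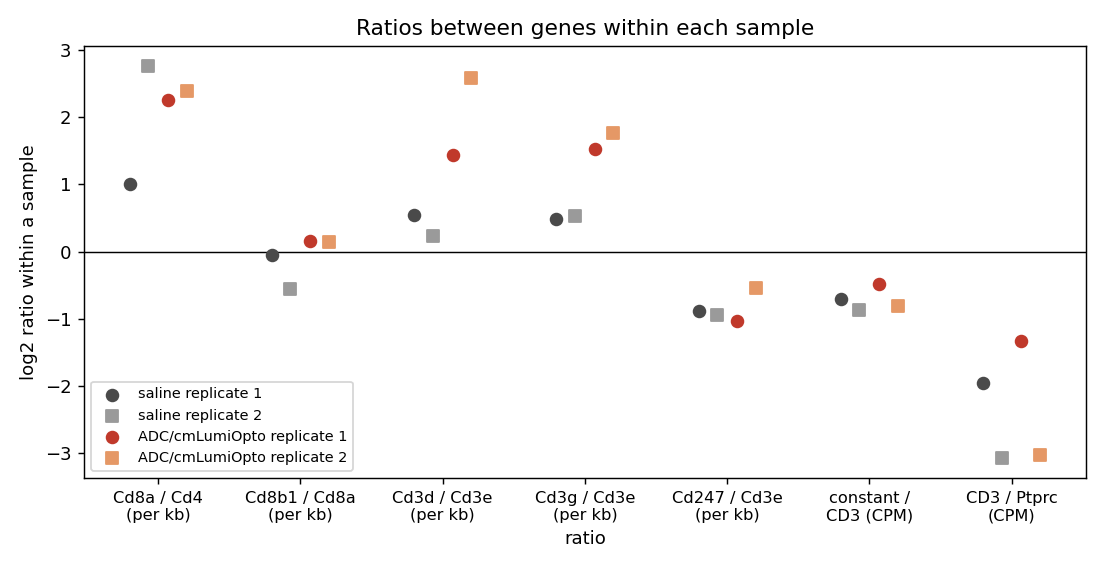
Log2 ratios between genes within each sample, one point per sample, per kilobase (kb) of gene length or in CPM as marked; CD3 stands for the sum of Cd3d, Cd3e, Cd3g and Cd247, and constant for the sum of Trac, Trbc1 and Trbc2. The ratios of Cd3d and Cd3g to Cd3e lie higher in both treated samples than in both saline samples, whereas Cd247 to Cd3e and the constant genes to CD3 overlap between groups.

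The proportions of the CD3 genes were compared next. Cd3d to Cd3e per kilobase was 1.46 and 1.17 in the saline samples and 2.71 and 5.99 after treatment, a difference of 1.62 in the mean log2 ratio. Cd3g to Cd3e was 1.40 and 1.45 in the saline samples and 2.89 and 3.41 after treatment, a difference of 1.14. For both ratios both treated samples exceeded both saline samples, and the exact permutation p was 0.333, the smallest possible. Neither ratio was planned. The treated samples differed widely from each other in Cd3d to Cd3e. Cd247 to Cd3e ranged from 0.491 to 0.689 with overlapping groups (exact permutation p = 1.0). Longer genes tended to lower log2 fold changes over all genes tested (rank correlation, Spearman's rho, of -0.34 between length and log2 fold change across genes, which are not independent replicates), and Cd3e (4080 bases) is longer than Cd3d (1815 bases) and Cd3g (3269 bases). After removal of this length trend, the log2 fold changes were 1.79 for Cd3d, 1.70 for Cd3g and 0.67 for Cd3e. The shorter constant genes moved more, from 1.44 to 1.07 for Trac, from 1.51 to 1.14 for Trbc1 and from 1.64 to 1.26 for Trbc2. The αβ constant genes summed to 0.616 and 0.548 of the CD3 genes in CPM in the saline samples and to 0.714 and 0.573 after treatment (exact permutation p = 0.667).

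The CD3 genes were also set against genes of other cells, with differing directions. The 4 CD3 genes amounted to 0.259 and 0.118 of Ptprc, the leukocyte antigen CD45, in the saline samples and to 0.395 and 0.123 after treatment, so that each group held a high and a low sample (exact permutation p = 0.667). Ptprc had 1118 and 710 counts with saline and 1854 and 3573 with ADC/cmLumiOpto, highest in ADC/cmLumiOpto replicate 2, the sample with the highest sum of neutrophil markers. Against the summed lung markers, the CD3 genes were at 0.00646 and 0.0105 in the saline samples and at 0.00357 and 0.00272 after treatment, lower in both treated samples. Against the summed carcinoma markers they were at 0.00583 and 0.00165 in the saline samples and at 0.0137 and 0.00724 after treatment, higher in both treated samples. Both had an exact permutation p of 0.333. The difference in mean log2 ratio, treated over saline, was -1.40 against the lung list and 1.68 against the carcinoma list, compared with 0.33 against Ptprc, 0.92 against the leukocyte list and 1.06 against Pecam1, an endothelial gene that is itself in the lung list. The groups overlapped for the last 3 (exact permutation p = 0.667 each), and the lung, carcinoma and Pecam1 comparisons were chosen after the data were seen.

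The other genes of the pathway were described from lists. Of 26 genes of T cell receptor signaling, 25 were tested, with a median log2 fold change of 0.73. Of these, 22 were above 0 and 3 below, against 52.0% of all genes above 0. At an unadjusted p under 0.05 there were 6 higher and 2 lower, with the background of 11.0% and 12.2% given above, and 0 had an adjusted p under 0.05 in edgeR. The 3 with the smallest p were Sit1, Sh2d1a and Plcg1. Sit1, a transmembrane adaptor of lymphocytes, had 2 and 3 counts with saline and 23 and 19 with ADC/cmLumiOpto, which gave a log2 fold change of 2.72 with a standard error of 0.72 (edgeR adjusted p = 0.123). Sh2d1a, the adaptor SAP, had 6, 1, 34 and 20 counts (log2 fold change 2.65, standard error 0.85). Plcg1, a phospholipase that many cell types use, had 1613 and 1506 counts with saline and 948 and 1595 with ADC/cmLumiOpto, which gave a log2 fold change of -0.62 with a standard error of 0.21 (edgeR adjusted p = 0.165). The kinases that act first at the receptor had values near the median of the list, with 173, 70, 331 and 224 counts for Lck (log2 fold change 0.93, standard error 0.46) and 61, 29, 149 and 67 for Zap70 (1.01, standard error 0.58), listed with the saline pair first. Lck and Zap70 were named after their values were seen.

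**Figure D4:**
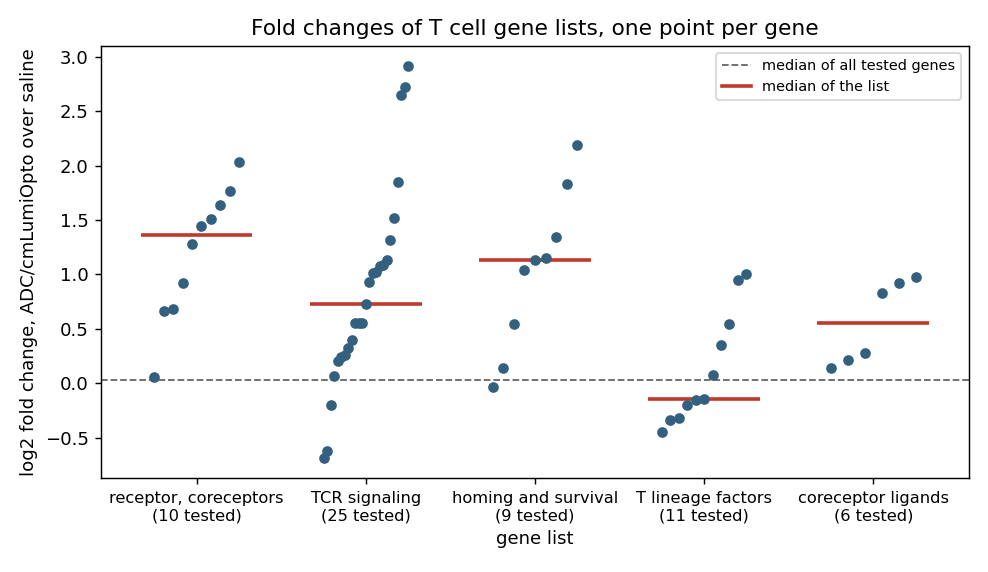
Log2 fold changes of the tested genes in 5 lists, one point per gene, with the median of each list in red and that of all tested genes dashed. The receptor and coreceptor genes have a median of 1.36, T cell receptor signaling 0.73, homing and survival 1.13, T lineage factors -0.14 and the MHC ligands of the coreceptors 0.56.

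T cell homing and survival genes had a median log2 fold change of 1.13, with 8 of 9 above 0 (52.0% of all genes) and 2 at an unadjusted p under 0.05, close to the 23.2% of all genes at that level. Ltb, lymphotoxin β, had 184 and 38 counts with saline and 471 and 775 with ADC/cmLumiOpto, which gave a log2 fold change of 2.19 with a standard error of 0.62 (edgeR adjusted p = 0.131). Cd69, an early activation and residency marker, had 40, 8, 86 and 124 counts (log2 fold change 1.83). The 11 T lineage transcription factors had a median of -0.14, 5 above 0 and 0 at an unadjusted p under 0.05. Most of their counts came from Ets1, Gata3 and Zbtb7b, at between 814 and 2400 counts in each sample. The 3 with the smallest p were Ets1 (log2 fold change -0.45), Gata3 (-0.32) and Tbx21, the Th1 factor T-bet, which had 20, 5, 38 and 22 counts (1.00). Foxp3, the factor of regulatory T cells, had 17, 4, 36 and 12 counts and was named after its values were seen. The MHC genes that the coreceptors bind were abundant, and all 6 had a value above 0 (52.0% of all genes), with a median of 0.56. For class II, H2-Aa had 3375 and 1892 counts with saline and 8530 and 3790 with ADC/cmLumiOpto (log2 fold change 0.98), with H2-Eb1 at 0.83 and H2-Ab1 at 0.92, whereas the class I genes H2-K1 and H2-D1 were at 0.28 and 0.21. Without ADC/cmLumiOpto replicate 1 the class II values were 0.14 for H2-Aa, -0.17 for H2-Eb1 and -0.11 for H2-Ab1.

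Markers of other lymphocytes were measured beside these genes. Of 10 NK markers 6 were tested, all with a value above 0 (median 0.79), against 52.0% of all genes. Klrd1, a receptor chain shared with CD8 T cells, had 25, 15, 93 and 48 counts (log2 fold change 1.55, standard error 0.56), whereas the most abundant, Tyrobp (1.04) and Fcer1g (0.43), are also genes of myeloid cells. Ncr1, which defines NK cells, had 17, 1, 17 and 22 counts. Klra4 and Klra8 were at 0 in all 4 samples. Whether BALB/cJ mice carry these 2 genes was not tested, so their values do not describe NK cells. Of 8 B cell markers 4 were tested, of which 3 were above 0 (Cd79b at 1.51, Fcrla at 1.10 and Cd79a at 0.84) and 1 below (Pax5 at -0.28). Of 5 genes of leukocytes in general, all had a value above 0, as had 52.0% of all genes tested. The 3 with the smallest p were Cd53 (0.76), Ptprc (1.25) and Coro1a (1.46). The 3 lung markers with the smallest p, Ager, Cldn5 and Sftpa1, had log2 fold changes of 2.13, 1.37 and 2.06, and the neutrophil markers S100a9, Ly6g and Csf3r of 2.61, 2.21 and 2.01. Of 9 macrophage markers 5 were above 0 and 4 below, with Mrc1 at -0.98 and C1qb at 0.51. Of 7 carcinoma markers 3 were above 0 and 4 below, with Cdh1 at 0.36, Krt18 at -0.25 and Cldn4 at -0.30.

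Levels between genes were compared per kilobase of the length listed with the counts. In the saline group the order was Trbc2, Cd8a, Cd8b1, Trac, Trbc1, Cd3g, Cd3d, Cd4, Cd3e and Cd247, from 4.59 ± 3.73 (SD, n = 2) to 0.454 ± 0.337 (SD, n = 2) CPM per kilobase. Every gap between neighbors in that order was smaller than the larger SD of the pair. After treatment the order was Trbc2, Trac, Cd8b1, Trbc1, Cd8a, Cd3d, Cd3g, Cd3e, Cd4 and Cd247, from 14.4 ± 7.84 (SD, n = 2) to 0.731 ± 0.335 (SD, n = 2). There the gap from Cd3g (4.08 ± 2.30, SD, n = 2) to Cd3e (1.34 ± 0.888, SD, n = 2) alone exceeded the larger SD.

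The genes outside the lists whose pattern over the 4 samples lay nearest to the mean of the 10 genes were Gm26688, Ifit3b, Slamf8, Arl5c, Aif1, Lrp2, Ifit3 and Nkg7, at distances of 0.0998 to 0.239 in centred log2 CPM. Nkg7, a gene of cytotoxic granules, had 124 and 36 counts with saline and 323 and 130 with ADC/cmLumiOpto. Aif1 and Slamf8 are genes of macrophages, Ifit3 and Ifit3b are induced by interferon, and Gm26688 had at most 26 counts in a sample. Of the 10 genes themselves, Cd8b1 (0.267) and Trac (0.320) lay nearest to their mean and Cd4 (1.11) and Cd3d (1.15) farthest. With 4 samples these distances describe the order of the libraries.

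The fold changes moved with single samples. With each sample left out in turn, the median of the 10 genes was between 0.45 (without ADC/cmLumiOpto replicate 1) and 2.29 (without saline replicate 1). Cd3d kept the highest lower end, with values from 1.39 to 3.31, and without saline replicate 1 its adjusted p was 0.0379 in edgeR's quasi-likelihood test (range 0.0379 to 0.449 over the 4 fits). Cd3g ranged from 1.05 to 2.76, Trbc2 from 0.94 to 2.87 and Trac from 0.43 to 2.48. Cd3e turned to -0.23 without ADC/cmLumiOpto replicate 1, and Cd4 to -0.86 without that sample and to -0.70 without saline replicate 2. Each of these fits leaves 1 group with a single sample, which is assumed to vary like the other group.

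**Figure D5:**
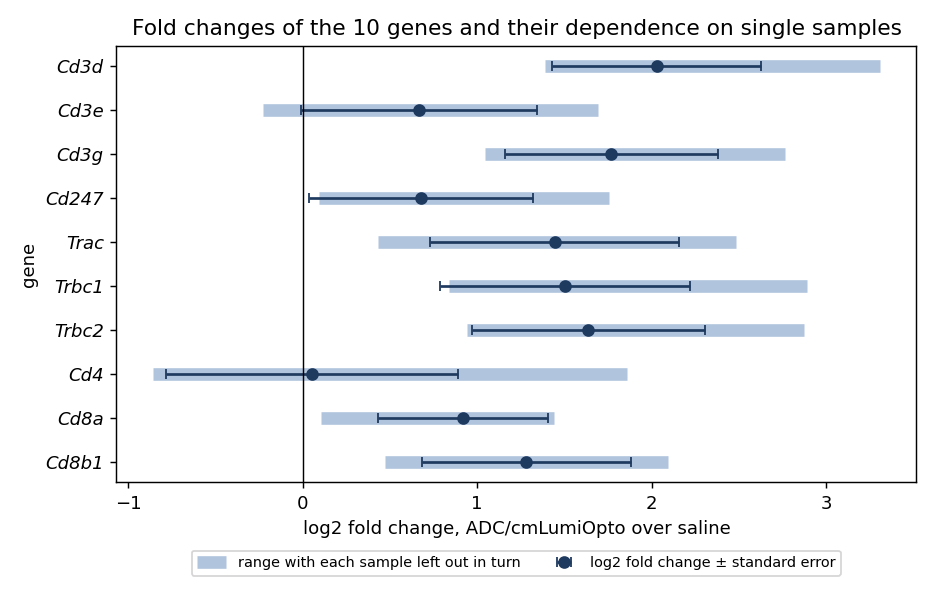
Log2 fold changes of the 10 genes (points, with the standard error as bars, n = 2 per group) and the range of the value with each sample left out in turn (pale bands). The bands of Cd3e and Cd4 cross 0, from -0.23 to 1.69 and from -0.86 to 1.86, and those of the other 8 genes stay above it.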

How the data were processed

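RNA of 2 saline and 2 ADC/cmLumiOpto mice was measured by poly(A) bulk RNA sequencing on an Illumina instrument. The deposited table holds unnormalized read counts for each gene, 1 column per sample, with gene lengths and coordinates. Reads were aligned with HISAT2, to GRCm38 per the study's methods and to mm39 per the submitters' processing notes. Coordinates of 0 of the 10 genes matched GENCODE vM21 (GRCm38) and are given as in the file. The counting program and strandedness are not given in the sources used here.

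Of 56748 genes, 31185 had no count and 15320 passed filterByExpr (minimum count 10, minimum total 15). Treatment was tested in edgeR 4.0.16 (R 4.3.3) with TMM factors (0.973 to 1.044), the quasi-likelihood test and Benjamini-Hochberg adjustment over all tested genes at 0.05. Fold changes are treated over saline, with a prior count of 0.125. Levels are CPM, divided by gene length in kilobases where genes are compared. Ratios were compared by two-sided exact permutation, and shares carry exact (Clopper-Pearson) 95% intervals. The fits were tested on simulated data with less spread between samples than the 10 genes show here. That test checks the code and does not show how the fits perform on these data. Alternatives were DESeq2 1.42.0, the edgeR exact test, other scalings and filters, a gene length trend removed through lowess offsets (span 0.3), the replicate number as a block, and each sample left out.

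The genes, lists and tests were chosen with earlier results of these data known. Named were the 10 genes, Ptprc, the 3 genes of smallest p in each list, the 3 Trav and 3 Trbv segments with most counts, and the 8 genes outside the lists with the nearest pattern (log2 CPM, prior count 2). Other genes were named after their values were seen. Some genes that this rule names are not reported here. Nothing in the labels says more on how the samples of a group relate, so p-values measure the spread between these samples.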

Additional observations from a re-analysis of the deposited data

How the results depend on the processing

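The number of calls depended on the test. At an adjusted p under 0.05, the count over all genes went from 0 to 1332 with DESeq2, 1143 with the edgeR exact test and 2259 with no filter beyond 1 count, and that over the 10 receptor and coreceptor genes from 0 to 2, 1 and 7. At an unadjusted p under 0.05, the 10 genes gave 5 with DESeq2, 5 with the exact test and 7 with no filter, against 3, and the T cell receptor signaling genes 14 with no filter and 5 with at least 10 counts in every sample, against 8. Trbc1 could not be fitted under that last filter. The cause was not tested.

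With the replicate number as a block, 607 genes were called in all and 3 of the 10 (Cd3d, Cd3g and Trbc2), with 7 of the 10 and 13 signaling genes at an unadjusted p under 0.05. The labels do not say that a number marks a shared litter or day. The differences between replicates 1 and 2 correlated at 0.10 (Pearson, across genes) between the groups. A correlation over all genes cannot show whether samples of the same number share a litter or day, which was not tested.

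With each sample left out in turn, calls ranged from 0 to 206 over all genes and from 0 to 1 over the 10 genes, with 206 and 1 (Cd3d) without saline replicate 1. At an unadjusted p under 0.05, the 10 genes ranged from 1 to 9 and the signaling genes from 2 to 15. The difference in the log2 ratio of Cd8a to Cd4, 0.44 with all samples, ranged from -0.44 (without saline replicate 1) to 1.32. That of CD3 to Ptprc, 0.33, ranged from -0.51 (without ADC/cmLumiOpto replicate 1) to 1.18, was -0.23 without saline replicate 2, and was -1.40 with the lung list in place of Ptprc, an alternative chosen after seeing the data. It kept its direction with the leukocyte list (0.92), with the constant genes in place of CD3 (0.47) and, also chosen after seeing the data, with Pecam1 (1.06) and the carcinoma list (1.68). Cd4 turned to -0.70 without saline replicate 2 and to -0.86 without ADC/cmLumiOpto replicate 1, where Cd3e turned to -0.23, and without saline replicate 1 they were highest, at 1.86 and 1.69. Of 40 fold changes of the 10 genes in these fits, 36 kept their direction and side of the threshold, and 79 of 79 under the other alternatives kept their direction. The median over the 10 genes stayed between 1.02 (gene length trend removed) and 1.45 in those. Upper-quartile scaling moved the median of all genes to 0.11.

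The groups had 2 samples each and a gene as few as 9 counts in a sample, and a p that missed the threshold does not show equal levels.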
